A study of Homo sapiens with 6 samples.

Results

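The 10 genes described here mark the secretory cells of the intestinal epithelium, and 12 probe sets of 54613 tested on the arrays measured them. They were chosen by symbol: ATOH1 as the regulator of the secretory fate, MUC2, TFF3 and SPINK4 for goblet cells, LYZ, DEFA5 and DEFA6 for Paneth cells, and NEUROG3, CHGA and PYY for enteroendocrine cells. A probe set, a group of short oligonucleotides read together, counted where the platform annotation gave it exactly 1 gene symbol. All 10 genes had at least 1 such probe set, 8 of them 1 and LYZ and PYY 2 each. RNA came from Caco-2, a human colorectal adenocarcinoma cell line, and was hybridized to 6 Affymetrix arrays, 1 per sample. In 3 samples the cells had received a small interfering RNA (siRNA) against SDC1, the gene of the cell-surface proteoglycan syndecan-1. In the other 3 they had received a negative control siRNA, so all 6 had been transfected. The labels give no time after transfection, siRNA sequence, confluence or differentiation state. The design text calls the replicates independent without naming separate cultures, so p-values rest on a spread between arrays that may be technical.

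In the intestine, stem cell daughters that escape Notch signalling switch on ATOH1, a basic helix-loop-helix transcription factor, and become secretory. From these progenitors come goblet cells, which release mucus, Paneth cells, which release antimicrobial peptides at the crypt base, and, through NEUROG3, a second helix-loop-helix factor, hormone-producing enteroendocrine cells. Caco-2 cells are known mainly for the absorptive, enterocyte-like form they take after confluence.

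Factors of the ATOH1 and NEUROG3 class bind E-boxes, and the promoters of the members with an E-box letter match are shown here as sequence context for these genes. Promoter windows from RefSeq (GRCh38.p14) were searched for 6 of the 10 genes, ATOH1, NEUROG3, MUC2, SPINK4, CHGA and PYY. They made 7 windows in all because PYY has 2 start sites there. The search skipped any member window on the chromosome of DEFA5 and DEFA6, while the count over all windows kept that chromosome. The 250 bases before each start were searched on both strands for CAGCTG, which reads the same on either strand, and for CAGATG. At least 1 of the motifs was present in 3 of the 7 windows, against 24.3% of all 35116 windows of the table (14.0% for CAGCTG and 12.2% for CAGATG). The windows are chr11:1074624-1074873 on the plus strand, chr9:33239917-33240166 on the plus strand and chr10:69573423-69573672 on the minus strand, each given 5′ to 3′ and ending at the base before the transcript start, with the matches in capitals.
MUC2: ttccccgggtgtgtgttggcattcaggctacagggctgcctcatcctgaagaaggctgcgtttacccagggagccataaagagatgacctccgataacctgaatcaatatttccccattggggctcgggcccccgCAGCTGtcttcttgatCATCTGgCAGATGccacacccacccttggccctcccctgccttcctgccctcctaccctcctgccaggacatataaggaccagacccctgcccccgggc
SPINK4: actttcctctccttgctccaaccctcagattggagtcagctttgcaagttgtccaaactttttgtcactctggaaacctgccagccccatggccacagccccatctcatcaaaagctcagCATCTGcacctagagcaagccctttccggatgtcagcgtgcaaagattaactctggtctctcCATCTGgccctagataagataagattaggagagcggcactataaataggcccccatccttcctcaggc
NEUROG3: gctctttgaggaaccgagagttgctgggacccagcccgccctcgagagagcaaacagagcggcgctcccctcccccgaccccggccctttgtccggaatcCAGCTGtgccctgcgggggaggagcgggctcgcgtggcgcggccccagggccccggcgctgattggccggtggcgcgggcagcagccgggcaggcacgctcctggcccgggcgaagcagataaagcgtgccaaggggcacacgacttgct
MUC2 carried 1 CAGCTG and 2 CAGATG matches, one on each strand for the second motif. SPINK4 carried 2 CAGATG matches, both read on the other strand, and NEUROG3 carried 1 CAGCTG. The ATOH1, CHGA and PYY windows held neither string of letters. A match is a run of letters and not a measured binding site.

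Each value is a log2 signal with the probe set's own median subtracted, so 0 is the middle of its 6 arrays and only differences between arrays carry information. SDC1 itself was lower on every SDC1 siRNA array than on every control array. Its first probe set stood at -0.49, -0.61 and -0.33 with SDC1 siRNA, against 0.37, 0.36 and 0.33 with control siRNA. The difference was -0.83 ± 0.09 (log2, standard error), a level 1.78-fold lower with SDC1 siRNA, and the second probe set gave -0.85 ± 0.09. Neither passed an adjusted p of 0.05 in limma with Benjamini-Hochberg adjustment over all 54613 probe sets (adjusted p = 0.121 for each), and 0 probe sets did (0.0% called, lowest adjusted p = 0.0502). With probe sets combined into 19775 genes SDC1 passed, as 1 of 5 genes with the brightest probe sets of each (0.0253% called, limma adjusted p = 0.0246) and as 1 of 3 with the mean of all (0.0152% called, adjusted p = 0.0239). None of the 10 secretory markers did in either fit. Over the 15 pairs of arrays, the median absolute difference per probe set lay between 0.11 and 0.17.

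Markers of the labelled cell type were set against a rough brightness, which could not settle the identity of the cells. The numbers keep the step size of their original single-precision storage, which places a probe set's log2 signal at 8 to 16, at 4 to 8 or below 4, and is not a detection call. The lowest array sets the class, so below 4 means below 4 on at least 1 array. Chance can place a probe set a class too high. Of all probe sets, 63.5% were at 4 or higher. EPCAM, KRT8 and KRT18, general epithelial genes, had their probe sets at 8 to 16, as did the intestinal transcription factor CDX1 and 1 of 2 probe sets each of CDX2 and the junction gene CDH1. Several defining enterocyte genes were below 4 in every probe set, namely FABP1, FABP2, APOA1, APOB, KRT20, SI, LCT and ANPEP, and the microvillus protein VIL1 was below 4 in 3 of its 4. Other enterocyte genes were at 4 or higher in every probe set: the peptidase DPP4 in 3 of 3, 1 of them at 8 to 16, the alkaline phosphatase ALPI in 2 of 2, the glucose transporter SLC5A1 in 2 of 2 and APOA4 in 1 of 1. The absorptive list had 21 of 51 probe sets at 4 or higher (41.2%) and the fibroblast and muscle list 30 of 43 (69.8%). In the latter list the collagen gene COL1A1 was at 8 to 16 in 3 of 5, and COL3A1, DCN and LUM in 0 of their probe sets. The leukocyte list had 9 of 19 at 4 or higher (47.4%), although its defining gene PTPRC was below 4 in all 5 of its probe sets. The 4 genes EPCAM, CDH1, KRT8 and KRT18 were looked up after the values had been seen. The absorptive, fibroblast and leukocyte genes named here were picked from their lists, also after that.

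Of the 12 probe sets of the secretory markers, 5 were at 4 or higher (41.7%). Longer lists of these lineages, described below, had 71.0% (goblet), 64.5% (Paneth) and 55.4% (enteroendocrine), and regulators of the secretory fate 74.7%. Brightness also depends on the probes, so these classes do not compare levels between genes. MUC2, the gel-forming mucin of the colon, and 1 PYY probe set were at 8 to 16. TFF3, SPINK4 and DEFA6 were at 4 to 8. The other 7 probe sets, those of ATOH1, NEUROG3, LYZ, DEFA5, CHGA and the second one of PYY, were below 4 on at least 1 array. Because the table is centred, the levels of the members could not be set in order.

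**Figure D1:**
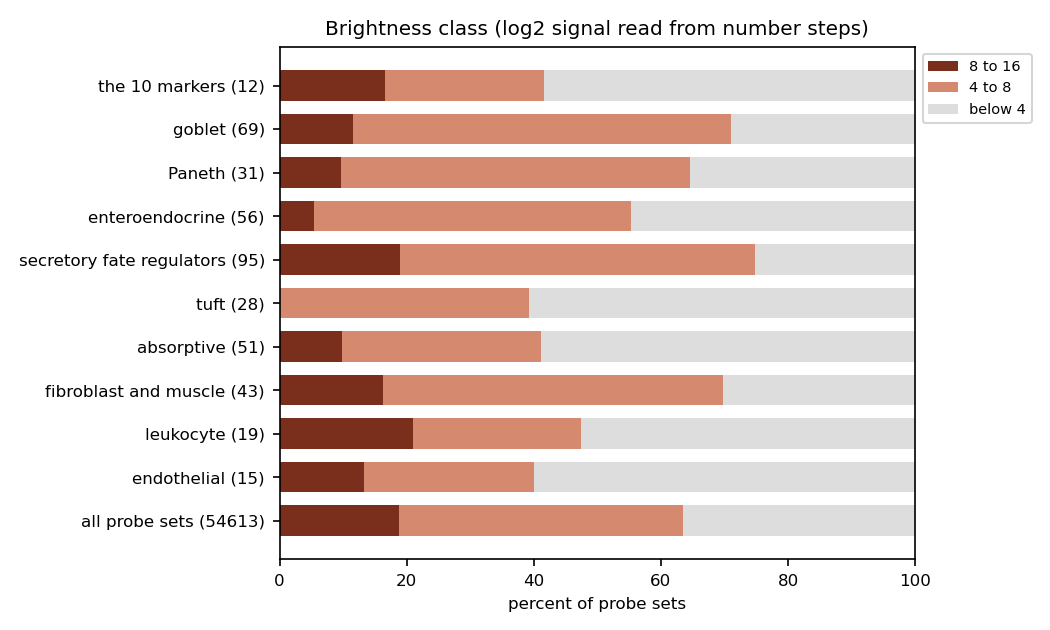
Percent of probe sets (horizontal axis) in 3 brightness classes of log2 signal, 8 to 16, 4 to 8 and below 4, for the 12 probe sets of the 10 markers, for 9 gene lists and for all 54613 probe sets (number of probe sets in parentheses). The markers have 41.7% of their probe sets at 4 or higher and all probe sets 63.5%. The goblet list has 71.0%, the Paneth list 64.5%, the enteroendocrine list 55.4% and the secretory fate regulators 74.7%. The other lists have 39.3% (tuft), 41.2% (absorptive), 69.8% (fibroblast and muscle), 47.4% (leukocyte) and 40.0% (endothelial).

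The secretory markers showed no difference that passed the test. Of the 12 probe sets, 9 were above 0 in the SDC1 siRNA minus control siRNA difference (50.2% of all probe sets were) and 3 below. None, 0 of 12, passed an adjusted p of 0.05 in limma over all probe sets, where the background was 0.0%. Their adjusted p-values lay between 0.441 and 0.996. At an unadjusted p under 0.05 there were 2 members, against 8.33% of all probe sets: the brighter PYY probe set, higher with SDC1 siRNA as 4.18% of all were, and DEFA6, lower as 4.15% were. The groups did not overlap in 3 of the 12, against 14.5% of all probe sets. Those were TFF3 and the brighter PYY probe set, higher with SDC1 siRNA (7.06% of all), and DEFA6, lower (7.42% of all). In these bulk samples, fewer cells of a type and less RNA per cell cannot be told apart. The median difference was 0.05 over the members and 0.00 over all probe sets, and the median absolute difference was 0.11 over the members and 0.09 over all.

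**Figure D2:**
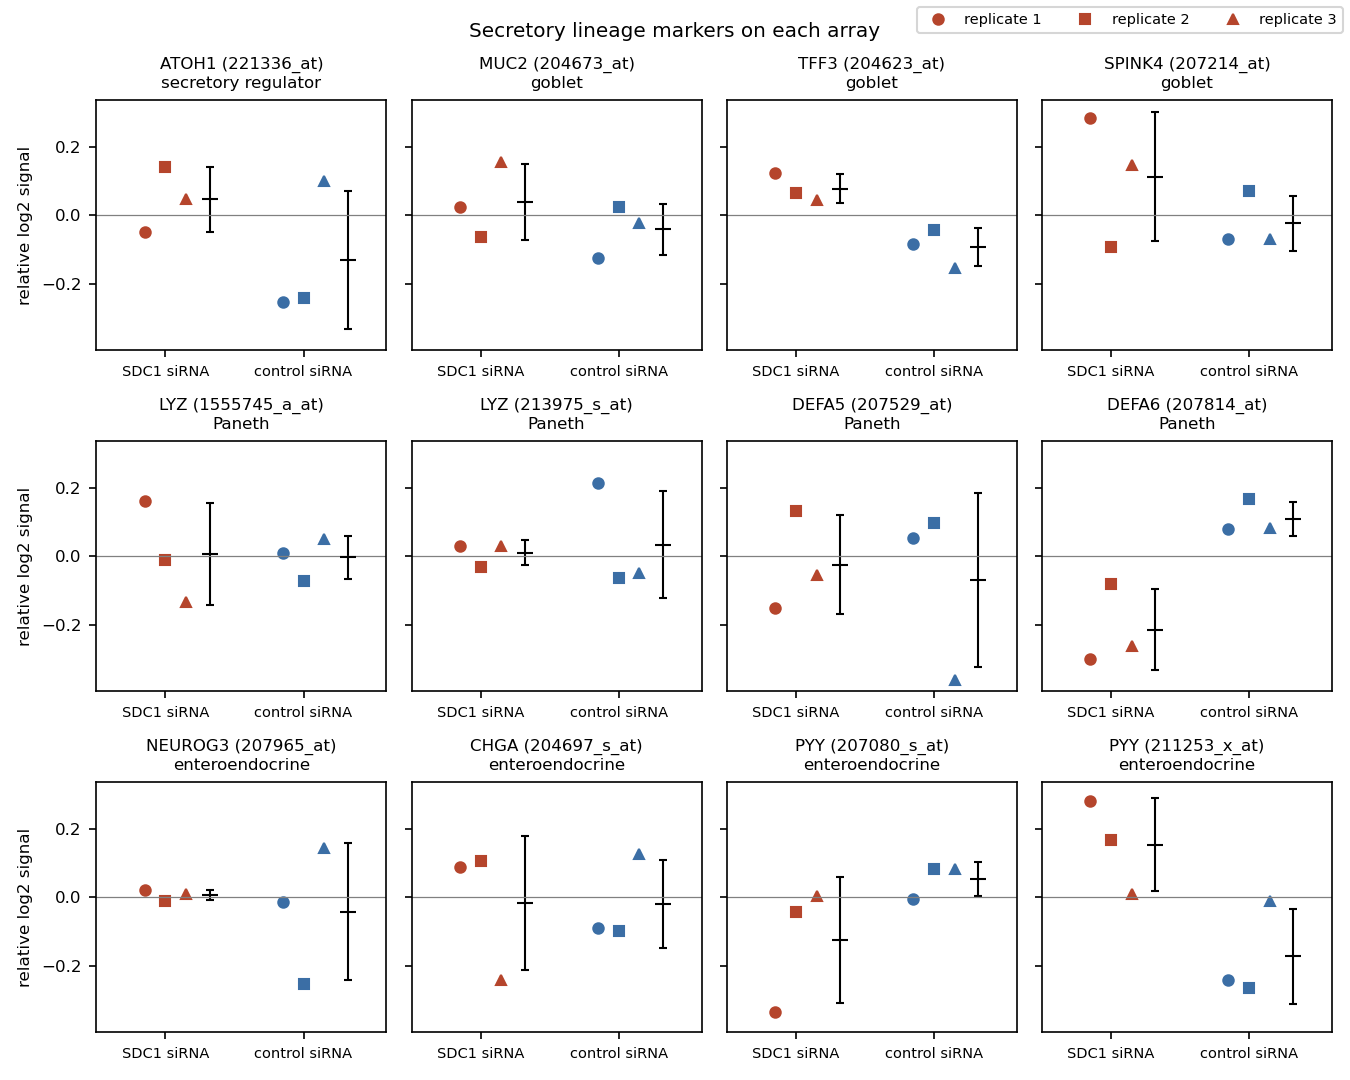
Relative log2 signal (vertical axis) of the 12 probe sets on each array, SDC1 siRNA left of control siRNA, with 1 symbol shape per replicate number and the mean ± SD (n = 3) beside each group. The groups separate in TFF3, DEFA6 and the brighter PYY probe set (type _x_at) and overlap in the other 9 panels.

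ATOH1, the factor that commits progenitors to the secretory fate, was at -0.05, 0.14 and 0.05 with SDC1 siRNA, against -0.25, -0.24 and 0.10 with control siRNA. The third control array lay among the SDC1 siRNA arrays, so the groups overlapped. Its mean was 0.05 ± 0.09 with SDC1 siRNA and -0.13 ± 0.20 with control siRNA (SD, n = 3 each). The difference of 0.18 ± 0.12 (log2, standard error) had a 95% interval of -0.09 to 0.44, with limma adjusted p = 0.724. It was read by 1 probe set, with a brightness below 4.

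The 3 goblet cell genes all had differences above 0, with a median of 0.14, and none passed. TFF3, a trefoil peptide secreted with mucus, was at 0.13, 0.07 and 0.04 with SDC1 siRNA, against -0.08, -0.04 and -0.15 with control siRNA. Every SDC1 siRNA array lay above every control array. The means were 0.08 ± 0.04 with SDC1 siRNA and -0.09 ± 0.06 with control siRNA (SD, n = 3 each). The difference was 0.17 ± 0.08, or 1.13-fold, with an interval of -0.01 to 0.35 (limma adjusted p = 0.619), and an exact two-sided permutation test gave p = 0.1. With 3 arrays against 3 that is the smallest p the exact test can give.

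MUC2 was at 0.02, -0.06 and 0.16 with SDC1 siRNA, against -0.12, 0.02 and -0.02 with control siRNA. These overlapped, and the difference of 0.08 ± 0.09 had an interval from -0.13 to 0.29, which in fold terms runs from 0.915 to 1.22 (limma adjusted p = 0.855). SPINK4, a secreted protease inhibitor of goblet cells, was at 0.28, -0.09 and 0.15 with SDC1 siRNA, against -0.07, 0.07 and -0.07 with control siRNA. Its second SDC1 siRNA array was the lowest of all 6, and the other two were the highest. The difference of 0.14 ± 0.11 had an interval from -0.12 to 0.39 (limma adjusted p = 0.782).

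Among the Paneth cell genes, DEFA6 had the lowest p of all members. DEFA6 encodes an enteric alpha-defensin that forms nets around bacteria. Its values were -0.30, -0.08 and -0.26 with SDC1 siRNA, against 0.08, 0.17 and 0.08 with control siRNA. All 3 SDC1 siRNA arrays lay below all 3 control arrays, with the second SDC1 siRNA array nearest to them. Means were -0.21 ± 0.12 with SDC1 siRNA and 0.11 ± 0.05 with control siRNA (SD, n = 3 each). The difference was -0.32 ± 0.09, a level 1.25-fold lower with SDC1 siRNA, with an interval from -0.53 to -0.12. It did not pass over all probe sets (limma p = 0.00638 unadjusted, adjusted p = 0.441), nor over genes (adjusted p = 0.234), and the exact permutation p was 0.1.

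The related defensin DEFA5, which kills bacteria at the crypt base, was at -0.15, 0.13 and -0.06 with SDC1 siRNA, against 0.06, 0.10 and -0.36 with control siRNA. The third control array alone was far below the rest. The difference was 0.05 ± 0.14, with the widest standard error among the members and an interval from -0.27 to 0.36 (limma adjusted p = 0.957). LYZ encodes lysozyme, which cleaves bacterial cell walls. Its _a_at probe set differed by 0.01 ± 0.10 and its _s_at probe set by -0.02 ± 0.10, with intervals from -0.22 to 0.23 and from -0.25 to 0.20. The SDC1 siRNA values of the first, 0.16, -0.01 and -0.13, enclosed the control values of 0.01, -0.07 and 0.05. In the _s_at probe set the values were 0.03, -0.03 and 0.03 with SDC1 siRNA, against 0.21, -0.06 and -0.05 with control siRNA. Both LYZ probe sets were in the dimmest class.

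The 2 probe sets of PYY, the gene of peptide YY, a satiety hormone of the distal gut, lay on opposite sides of 0. The brighter one, of type _x_at, was at 0.28, 0.17 and 0.01 with SDC1 siRNA, against -0.24, -0.26 and -0.01 with control siRNA. The groups were separate, but the third array of each group lay near 0, so the gap between the groups was narrow. The difference was 0.33 ± 0.11, or 1.25-fold, with an interval from 0.08 to 0.57 (limma adjusted p = 0.494). The dimmer one, of type _s_at, was at -0.34, -0.04 and 0.01 with SDC1 siRNA, against -0.01, 0.08 and 0.08 with control siRNA. These overlapped at the third SDC1 siRNA array, and the difference was -0.18 ± 0.11 (limma adjusted p = 0.701).

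Subtracting the dimmer PYY probe set from the brighter one on each array gave 0.62, 0.21 and 0.01 with SDC1 siRNA, against -0.24, -0.35 and -0.09 with control siRNA. The 2 probe sets thus differed from each other between the groups by 0.51, with an exact permutation p = 0.1, a comparison added after the values had been seen. The suffix _x_at marks probe sets whose probes can also match other transcripts, and _s_at those shared by several transcripts. Their brightness classes were 8 to 16 and below 4, and which PYY transcript each one reads is not given in the sources used here. Averaged into 1 value, PYY differed by 0.07 ± 0.07 (limma adjusted p = 0.764). Of genes related to PYY by sequence, looked up afterwards, PYY2 differed by 0.19 ± 0.11 (adjusted p = 0.679), the neuropeptide NPY by 0.09 ± 0.11 and the pseudogene PPY2P by -0.0002 ± 0.13.

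NEUROG3, which starts the enteroendocrine programme, was at 0.02, -0.01 and 0.01 with SDC1 siRNA, against -0.01, -0.26 and 0.15 with control siRNA. The SDC1 siRNA arrays were nearly equal and lay inside the control range. The difference was 0.05 ± 0.11, with an interval from -0.20 to 0.30 (limma adjusted p = 0.936). CHGA, chromogranin A of hormone granules, was at 0.09, 0.11 and -0.24 with SDC1 siRNA, against -0.09, -0.10 and 0.13 with control siRNA. In both groups the array numbered 3 stood apart, in opposite directions, and the difference was 0.00 ± 0.12 (interval from -0.27 to 0.28, limma adjusted p = 0.996). Both probe sets were in the dimmest class.

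**Figure D3:**
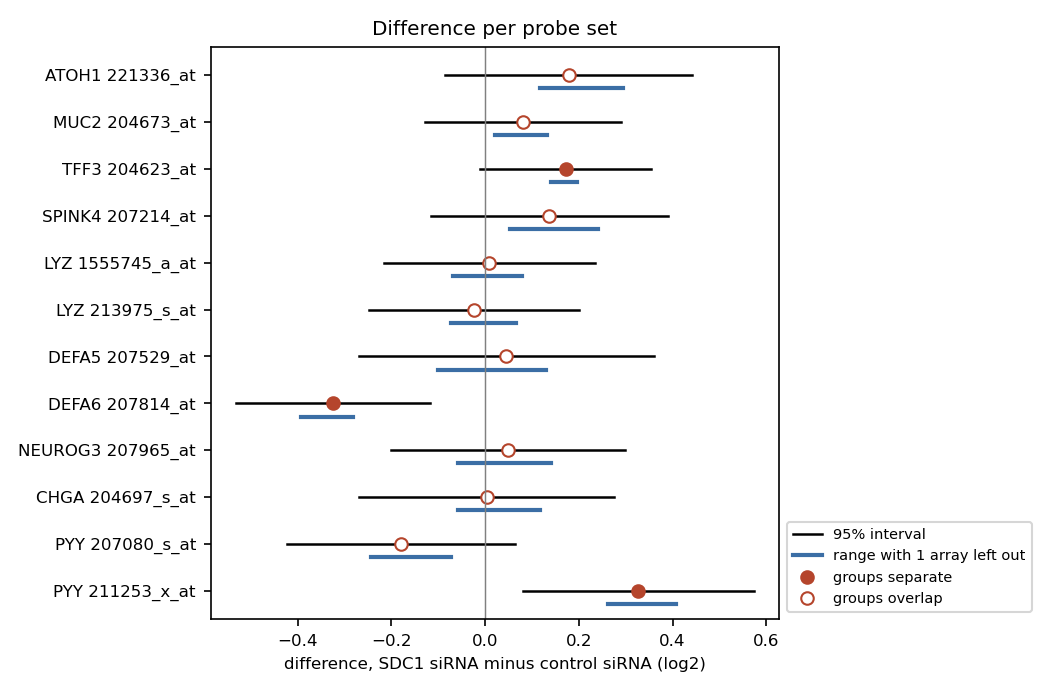
Difference between SDC1 siRNA and control siRNA on the log2 scale (horizontal axis) for each probe set, with its 95% interval in black and, in blue, its range over the 6 fits that each omit 1 array. Filled points mark separate groups. The intervals of DEFA6 (-0.53 to -0.12) and the brighter PYY probe set (0.08 to 0.57) lie on 1 side of 0, before adjustment over all probe sets.

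Across arrays, the members did not move as a block. On the 3 SDC1 siRNA arrays 8, 5 and 8 of the 12 probe sets were above 0, against 4, 5 and 6 on the control arrays. The lowest member differed between arrays: the dimmer PYY probe set, SPINK4 and DEFA6 on SDC1 siRNA arrays 1 to 3, against ATOH1, the brighter PYY probe set and DEFA5 on control arrays 1 to 3. The highest members on the same SDC1 siRNA arrays were SPINK4 at 0.28, the brighter PYY probe set at 0.17 and MUC2 at 0.16.

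For 1 probe set per lineage, the one with the lowest p, the 2 nearest patterns in the table were found by the root mean square difference over the 6 arrays. Nearest to DEFA6 were NOD2, an intracellular sensor of bacterial cell wall fragments, at 0.03 and the homeobox gene HOXC13 at 0.04. Nearest to TFF3 were the hyaluronan receptor gene LAYN and the G protein gene GNAS, each at 0.02. For the brighter PYY probe set they were AEBP1 and SAV1, each at 0.05, and for ATOH1 the ubiquitin ligase TRIM25 at 0.02 and the lubricin gene PRG4 at 0.03. These distances were the smallest among 41091 probe sets with 1 symbol, and how near the neighbours of an arbitrary probe set lie was not tested.

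Longer lists of the same lineages, whose counts include the members themselves, also gave 0 probe sets past the threshold. Of 35 goblet cell genes 34 were measured, by 69 probe sets, 48 above 0 and 21 below (median 0.05). At an unadjusted p under 0.05 there was 1 higher and there were 4 lower (7.25%, against 8.33% of all probe sets). On the higher side B3GNT6, an enzyme of mucin core synthesis, was at 0.20 ± 0.08 in 1 of its 2 probe sets and at -0.03 in the other. ERN2, a stress sensor of mucus cells, was at 0.24 ± 0.11 in 1 of its 2 probe sets and at -0.14 in the other. On the lower side the transcription factor CREB3L4 was at -0.30 ± 0.08 and GALNT12, which starts mucin O-glycans, at -0.30 ± 0.09. The 4 had limma adjusted p-values from 0.438 to 0.617. SPDEF, a goblet cell regulator, was at 4 to 8 in all 5 of its probe sets, and AGR2 was below 4 in both of its own; these 2 were picked after their values had been seen.

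The Paneth cell list had 22 of 23 genes measured by 31 probe sets, of which 20 lay above 0 and 11 below (median 0.02), and 4 at an unadjusted p under 0.05 (12.9%, against 8.33% of all probe sets). The member DEFA6 was among these 4. REG1B, a secreted lectin, was at 0.33 ± 0.11 in the dimmest class and the phospholipase PLA2G2A at 0.28 ± 0.16. NOD2 was at -0.30 ± 0.10 and the Wnt receptor FZD5 at -0.22 ± 0.08. Their limma adjusted p-values lay between 0.506 and 0.689.

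In the enteroendocrine list 38 of 44 genes were measured by 56 probe sets, with 33 above 0, 23 below and a median of 0.01, and 6 were at an unadjusted p under 0.05 (10.7%, near the 8.33% of all probe sets). The brighter PYY probe set was among these 6. FEV, a transcription factor of serotonin-producing cells, was at 0.40 ± 0.09 (limma adjusted p = 0.401) and the vesicle protein SYP at 0.23 ± 0.08. CPE, a prohormone-processing carboxypeptidase, was at -0.35 ± 0.13 in 1 of its 2 probe sets and at -0.23 in the other. DDC, which makes serotonin and dopamine from their precursors, was at -0.18 ± 0.09 in a dim probe set and at 0.28 in its second one.

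Among regulators of the secretory fate, 30 of 31 genes were measured by 95 probe sets, with 58 above 0, 37 below and a median of 0.03. Here 12 were at an unadjusted p under 0.05 (12.6%, against 8.33% of all), 3 higher (4.18% of all were) and 9 lower (4.15% of all), and 24 had separate groups (25.3%, against 14.5% of all). The goblet, Paneth and enteroendocrine lists had separate groups in 11.6%, 16.1% and 12.5% of their probe sets. JAG1, a Notch ligand, was at 0.29 ± 0.09 in 1 of 6 probe sets that reached down to -0.23. TCF3, a partner of ATOH1-type factors, was at 0.21 ± 0.09 in 1 of 14 that reached down to -0.20. At the gene level TCF3 was at 0.01 in its brightest class and at 0.06 as the mean. The related partner TCF4 was at -0.38 ± 0.08 (limma adjusted p = 0.378), and its 8 probe sets all lay below 0, between -0.38 and -0.15. RUNX1T1, a corepressor, was at -0.34 ± 0.10 in 1 of 7 probe sets, the highest of which was at 0.26. Probe sets of 1 gene share its RNA and are not separate observations.

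**Figure D4:**
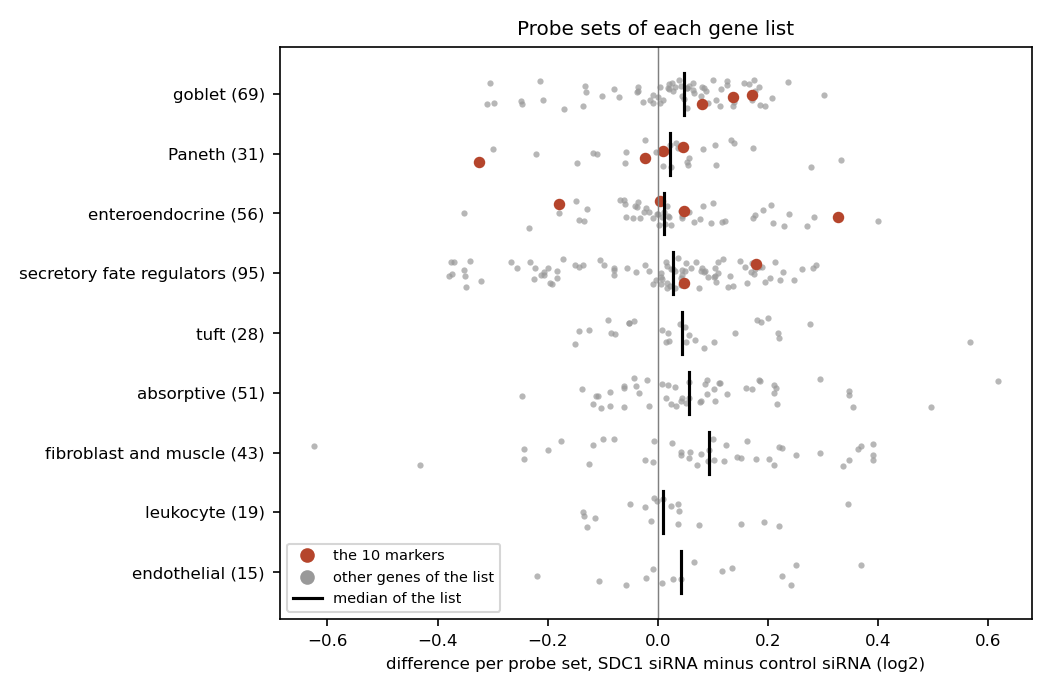
Difference per probe set between SDC1 siRNA and control siRNA (log2, horizontal axis) for the probe sets of 9 gene lists (number in parentheses), with the 10 markers in red, other genes in grey and each list's median as a black bar. The medians lie between 0.01 and 0.09, and 0 probe sets passed the adjusted threshold.

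Lists of other epithelial and non-epithelial cells gave the same count of 0. Tuft cell genes had 28 probe sets and a median of 0.045, with the cyclooxygenase PTGS1 at 0.57 ± 0.15 in 1 dim probe set and -0.14 in another, the receptor IL17RB at 0.28 ± 0.11 and the kinase DCLK1 at -0.15 ± 0.09. Other probe sets of DCLK1 reached 0.02. Absorptive genes had 35 of 51 probe sets above 0 and a median of 0.06. Their leading members were the adhesion molecule CEACAM1 at 0.62 ± 0.09 in 1 of 5 probe sets (limma adjusted p = 0.22) and the peptide uroguanylin, GUCA2B, at 0.50 ± 0.11. Other probe sets of CEACAM1 reached down to -0.09. At the gene level CEACAM1 was at 0.21 by both rules (limma adjusted p = 0.518 in the brightest class and 0.325 as the mean). On the lower side were the carbonic anhydrase CA1 at -0.25 ± 0.11 and VIL1 at -0.14 ± 0.11, whose other probe sets reached 0.21 and 0.29.

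The fibroblast and muscle list had 43 probe sets, a median of 0.09 and 9 at an unadjusted p under 0.05 (20.9%, against 8.33% of all), 7 higher (4.18% of all were) and 2 lower (4.15% of all). Its groups were separate in 13 (30.2%, against 14.5% of all). The fibroblast and muscle list held TAGLN at 0.39 ± 0.08, COL1A2 at 0.37 ± 0.09, LUM at -0.62 ± 0.18 and COL3A1 at -0.43 ± 0.15. Without control replicate 2, LUM was at -0.42 and COL3A1 at -0.27, and TAGLN and COL1A2 were at 0.42 and 0.40. Other probe sets of TAGLN and COL1A2 reached down to 0.08 and 0.12, and those of LUM and COL3A1 up to 0.04 and 0.12. In the leukocyte list of 19 probe sets (median 0.01) ITGAM was at 0.35 ± 0.09, CD3E at 0.22 ± 0.10, CD79A at -0.13 ± 0.09 and PTPRC at -0.13 ± 0.11. In the endothelial list of 15 (median 0.04) CDH5 was at 0.37 ± 0.13, VWF at 0.24 ± 0.10, ERG at -0.22 ± 0.13 and PECAM1 at -0.06 ± 0.09. A second ITGAM probe set was at 0.01, and other probe sets of PTPRC reached 0.15. A second VWF probe set was at 0.01, and other probe sets of ERG and PECAM1 reached 0.07 and 0.25. The part of these lists in the values of the secretory markers was not tested.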

How the data were processed

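Gene expression was measured in 6 samples of total RNA from Caco-2 cells. The authors deposited log2 values that RMA produced, per the submitters' processing notes; its version is not given in the sources used here. RMA subtracts background, equalizes the distributions of the arrays and combines the probes of a set. All 54675 probe sets had a 6-array median of 0 (tolerance 1e-06), a centring that no source describes. The number of arrays limits the precision.

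After removal of 62 control probe sets, 54613 were tested singly with limma 3.58.1 in R 4.3.3 (lmFit, eBayes, group as the only term), adjusted by Benjamini-Hochberg with a threshold of 0.05. Errors are moderated standard errors. No filter was applied. The fit was tested on simulated data. Gene symbols came from the platform annotation: 41091 probe sets had 1, 1801 several and 11721 none, and 99.9% of those with 1 had an Entrez identifier in RefSeq, used to update symbols. Brightness classes came from differences between arrays being whole multiples of a storage step (tolerance 0.12 of a step).

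The members and lists were chosen with earlier results of these data known. The rule for named genes took all members, SDC1, per list and direction the 2 genes with the lowest p that are not members, and the 2 nearest patterns per lineage. Markers named for their brightness, SPDEF, AGR2 and the relatives of PYY were picked outside it, after values had been seen. The arrays differed: at most 190 probe sets were exactly equal in any pair. Alternatives were gene-level values by 2 rules, probe set types, a brightness filter, 2 normalizations, array weights, robust moderation, a replicate block, each array left out, and an adjusted p of 0.01.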

Additional observations from a re-analysis of the deposited data

How the results depend on the processing

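Across 169 refits of the 12 member probe sets, 0 passed an adjusted p of 0.05 in limma, and the lowest adjusted p was 0.228. Over all features the count past the threshold was 0 at the probe set level, 5 with genes as their brightest class, 3 with genes as the mean over their probe sets, 2 without _x_at and _s_at probe sets, 2 among probe sets at 4 or higher and 3 with array weights, and 0 in every fit that left out 1 array. Each of the 9 lists kept a count of 0 in every setting. SDC1 was at -0.84 in both gene-level fits and passed there (adjusted p = 0.0246 and 0.0239). With 1 array left out it ranged from -0.91 to -0.76 for its first probe set and from -0.93 to -0.79 for its second.

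Of the 12 probe sets, 6 kept their sign in every setting run. They include TFF3 (0.14 to 0.20), DEFA6 (-0.39 to -0.28) and the brighter PYY probe set (0.26 to 0.41) with 1 array left out. The other 3 kept it too but moved by over 1.5 times with 1 array left out: MUC2 (0.081) to 0.022 without SDC1 siRNA replicate 3, 0.13 without SDC1 siRNA replicate 2 and 0.039 without control replicate 1, SPINK4 (0.14) to 0.052 and 0.24 without SDC1 siRNA replicates 1 and 2, and ATOH1 (0.18) to 0.12 and 0.30 without control replicates 1 and 3. With 1 array left out the sign changed in NEUROG3 (-0.058 to 0.14), the _a_at probe set of LYZ (-0.069 to 0.079), its _s_at probe set (-0.073 to 0.067), DEFA5 (-0.10 to 0.13) and CHGA (-0.057 to 0.12). The arrays whose removal turned the sign were control replicate 2 for NEUROG3 (-0.058), SDC1 siRNA replicate 1 (-0.069) and control replicate 2 (-0.025) for the first LYZ probe set and control replicate 1 (0.067) for the second. For DEFA5 they were SDC1 siRNA replicate 2 (-0.034) and control replicate 3 (-0.10), and for CHGA SDC1 siRNA replicates 1 (-0.049) and 2 (-0.057) and control replicates 1 (-0.031) and 2 (-0.036). At the gene level LYZ was at -0.0071 by both rules, against 0.0092 for its _a_at probe set. PYY was at 0.33 in its brightest class and at 0.074 as the mean, against -0.18 for its dimmer probe set. With 1 array left out that dimmer probe set ranged from -0.24 to -0.073, the latter without SDC1 siRNA replicate 1. Single probe sets of other genes that turned at the gene level were DDC (0.28 in the brightest class, 0.052 as the mean), PTGS1 (0.18 and 0.15), VIL1 (0.19 and 0.0705), PTPRC (0.011 and 0.011), PECAM1 (0.10 and 0.10) and CA1 (0.21 in the brightest class). The first rule drops dimmer probe sets and the second averages them.

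Deviations of same-numbered arrays from their group means correlated at 0.07, -0.19 and 0.06. Those of differently numbered arrays correlated between -0.20 and 0.18. Because the deviations sum to 0 within each group, these values cannot decide whether the replicates were handled in pairs. With the replicate block 0 probe sets passed, as without it. The planned comparison of mean levels between probe sets could not be made from centred values.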
